A study of Homo sapiens with 4 samples.

Results

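The kinesin superfamily was followed through a transfection of SCC-9, an established line of human tongue squamous carcinoma, in which the cells received a miR-585-5p mimic, a synthetic copy of that microRNA. Members were all symbols that the array's annotation assigns alone to a probe set and that read KIF or KIFC followed by a digit, each represented by its brightest probe set over the arrays. The rule found 42 symbols among 18132 genes, 41 of them kinesin genes and 1 an antisense RNA, KIF25-AS1. RNA was measured on 4 PrimeView arrays, 2 of cells given the mimic and 2 of cells given miR-NC, the negative control. Per the labels, each small RNA was used at 30 nM, 24 hours after seeding, and cells were collected 36 hours after transfection. Nothing in the labels names separate cultures within a group, and the p-values therefore describe the spread among these 4 samples, which may be technical. SCC-9 is 1 line, and a mimic raises a microRNA beyond what the cell makes.

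Kinesins are motor proteins that turn ATP hydrolysis into steps along microtubules or into the shortening of microtubule ends. One set of them builds and drives the mitotic spindle and the midbody, and is made mainly by dividing cells. Another set carries vesicles, organelles and membrane proteins, usually towards the growing end of the microtubule, and further ones work in cilia or at microtubule ends. In squamous carcinoma cells the mitotic motors are read as part of the proliferation programme, while transport motors serve all phases of the cell cycle.

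The transfected microRNA is shown because every comparison is set by it. Its mature sequence, from RefSeq on GRCh38.p14 (chr5:169263649-169263670, minus strand), has its seed, bases 2 to 8, in capitals. Whether kinesin transcripts carry sites for this seed was not tested, since no transcript sequences were used here.
hsa-miR-585-5p: cUAGCACAcagauacgcccaga

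Promoters are shown for some of the division kinesins that rose, for 1 division kinesin that did not pass, and for 2 risen kinesins from outside cell division. Each is the stretch from 100 bases before the annotated start to 19 bases after it, on the strand of the gene, from RefSeq on GRCh38.p14. The start is that of the promoter entry. For KIFC1 the start of the gene itself lies at -362 from it, and for the others shown the starts are the same. Capitals mark the CCAAT box, which NF-Y binds, and the letters of the cell cycle genes homology region (CHR), searched as TTTGAA and TTCGAA. The CHR is known as the element through which MuvB complexes restrain and then activate genes of late cell cycle phases. Both strands were searched, a match on the other strand is printed as its reverse complement, and no matches overlap in the printed windows. KIF14, KIF4A, KIF18A, KIF23, KIFC1 and KIF11 rose, and each holds both motifs in this window. They are a choice from the 10 risen division kinesins, of which 7 hold both motifs in the 300 bases searched. Not shown are KIF20A and KIF2C, which rose without the CHR letters, KIF15, which rose without a CCAAT box, and KIF22, which holds both.
KIF14 (chr1:200620732-200620851, minus strand): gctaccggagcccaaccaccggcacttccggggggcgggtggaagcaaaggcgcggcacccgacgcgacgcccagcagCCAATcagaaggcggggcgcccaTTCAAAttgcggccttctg
KIF4A (chrX:70290004-70290123, plus strand): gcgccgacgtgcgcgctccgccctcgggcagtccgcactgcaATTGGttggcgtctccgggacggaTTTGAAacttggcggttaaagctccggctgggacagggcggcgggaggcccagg
KIF18A (chr11:28108137-28108256, minus strand): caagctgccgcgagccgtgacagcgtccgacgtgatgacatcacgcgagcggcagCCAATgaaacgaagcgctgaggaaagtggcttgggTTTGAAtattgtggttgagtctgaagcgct
KIF23 (chr15:69414249-69414368, plus strand): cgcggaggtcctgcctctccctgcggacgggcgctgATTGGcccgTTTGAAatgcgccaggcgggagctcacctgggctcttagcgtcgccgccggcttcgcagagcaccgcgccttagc
KIFC1 (chr6:33391723-33391842, plus strand): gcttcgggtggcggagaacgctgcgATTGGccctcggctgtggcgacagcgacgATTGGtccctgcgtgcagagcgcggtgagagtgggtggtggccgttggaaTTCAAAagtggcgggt
KIF11 (chr10:92593030-92593149, plus strand): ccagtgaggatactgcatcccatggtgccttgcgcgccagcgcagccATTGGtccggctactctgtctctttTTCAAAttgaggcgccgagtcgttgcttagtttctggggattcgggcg
KIF18B, a division kinesin that did not pass the test, holds the same letters.
KIF18B (chr17:44947754-44947873, minus strand): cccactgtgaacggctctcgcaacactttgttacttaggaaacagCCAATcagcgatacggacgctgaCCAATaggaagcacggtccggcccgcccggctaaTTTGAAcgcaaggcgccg
KIF3A and KIF26A rose, and neither holds any of these letters in this window.
KIF3A (chr5:132737527-132737646, minus strand): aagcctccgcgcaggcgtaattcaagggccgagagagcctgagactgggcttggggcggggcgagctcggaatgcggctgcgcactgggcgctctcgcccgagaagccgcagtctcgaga
KIF26A (chr14:104138487-104138606, plus strand): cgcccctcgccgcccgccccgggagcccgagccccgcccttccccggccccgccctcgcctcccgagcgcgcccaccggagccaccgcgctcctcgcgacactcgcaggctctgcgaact

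Most division kinesins rose, 10 of 12 tested, while transport kinesins included 3 that rose and 7 that fell. No kinesin fell by as much as 2-fold on the deposited scale, and with the arrays scaled to poly(A) spikes 5 did, KIF13B, KIF17, KIFC2, KIF1C and KIF3B. Of the 42 symbols, 39 passed the filter on dim genes and were tested, 16 were higher and 9 lower in the mimic group, and 14 did not pass (limma, adjusted p under 0.05 over 14122 genes). The background is high on these arrays. Over all genes tested 55.0% passed, 28.1% higher and 26.9% lower, beside 64.1%, 41.0% and 23.1% of the kinesin symbols. The shares called thus did not lie far from those of all genes. A rise of at least 2-fold was called for 12 of 39 kinesins (30.8%), against 4.76% of all genes, and a fall of at least 1.5-fold for 6 (15.4%), against 10.0%. The median log2 change was 0.017 for the kinesins and -0.058 for all genes. Mimic and control arrays did not overlap for 33 of 39 (84.6%), against 79.4% of all genes. The results are given by role.

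**Figure D1:**
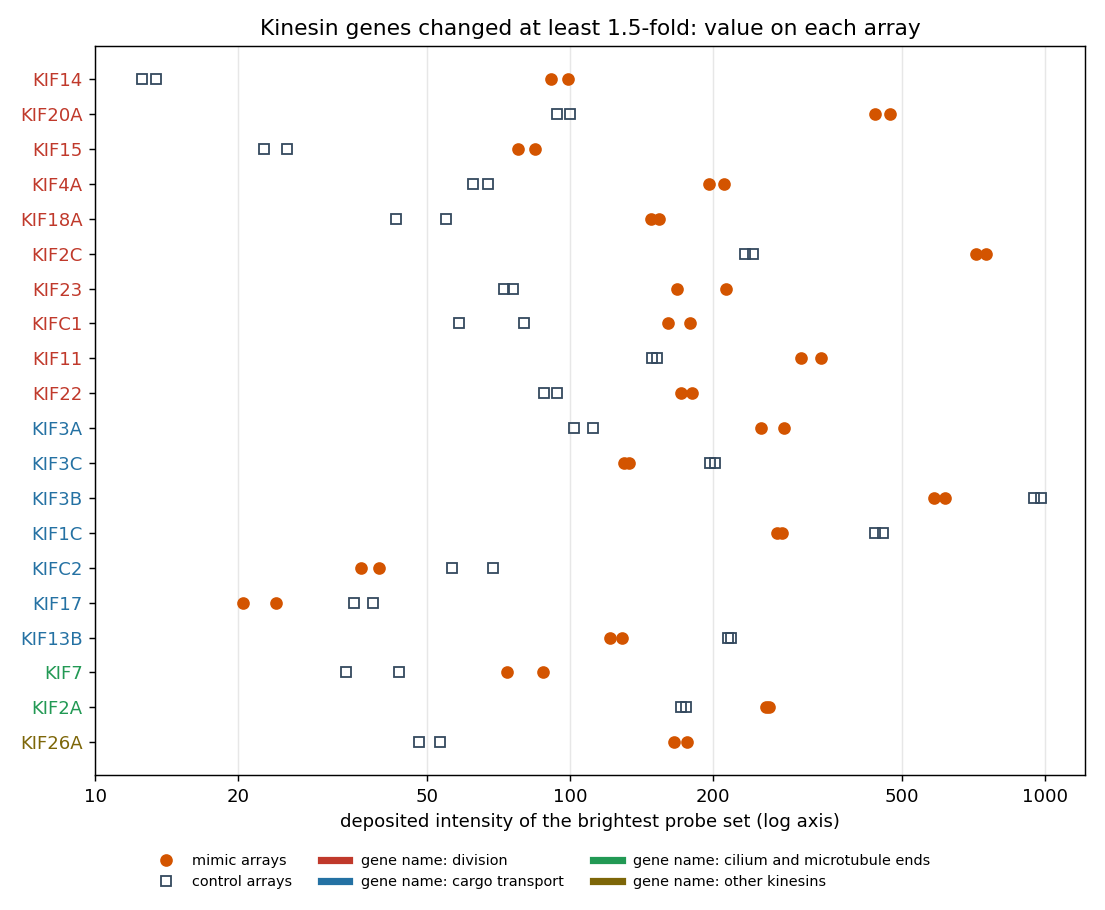
Deposited intensity (x axis, log) of the 20 kinesin genes that passed the test with a change of at least 1.5-fold, 1 row per gene, with filled circles for the 2 mimic arrays and open squares for the 2 control arrays. The groups do not overlap in any row; mimic arrays lie to the right in 14 rows and to the left in 6, all 6 being transport kinesins. Positions of different genes are not comparable, since probe sets differ in brightness.

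Median intensities ran from 30.6 to 31.3, as normalization between arrays sets them. Arrays of 1 group correlated at 0.997 to 0.998 across probe sets, and mimic with control arrays at 0.978 to 0.983. The poly(A) spike-in RNAs, of bacterial origin, were 0.34 (log2) brighter in the mimic group and the hybridization spikes differed by -0.052. All changes are given on the deposited scale unless the poly(A) scale is named. Scaling to the poly(A) spikes lowers every log2 change by 0.34, moves the median of all genes from -0.058 to -0.40 and turns 3966 higher and 3802 lower genes into 1573 and 7818. On that scale 13 of the 16 higher kinesins remained higher, all 9 lower ones remained lower, and 19 in all were lower. All 7 squamous or epithelial markers measured here were above the control probe sets with no human target on all arrays. Of 9 markers of blood, vessel and stromal cells, 5 (CD68, PECAM1, VWF, PDGFRB and MYH11) were also above them on all arrays. CD3E was above them on 2 arrays, and 3 (PTPRC, COL3A1 and DCN) on no array. The summed level of those 9 was 242 to 255 on mimic and 275 to 279 on control arrays, and their part in the results was not tested.

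Kinesins of cell division formed the strongest group. Of 13 such genes 12 were tested, 10 rose and none fell, beside 28.1% and 26.9% of all genes. The median log2 change was 1.49, with a range from -0.15 to 2.87. Of the 10, 9 rose at least 2-fold. In bulk RNA, a larger share of dividing cells and more of these RNAs per cell cannot be told apart. The same number, 10, was higher with the poly(A) spikes and whichever array was left out. With the poly(A) spikes KIF18B was called lower, at -0.49, where 55.4% of all genes were lower.

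KIF14, which localizes to the midbody and completes cytokinesis with citron kinase, had the highest change. It read 99.0 and 91.2 with the mimic against 13.4 and 12.6 with miR-NC. The control arrays lie under the brightest of the 20 control probe sets with no human target used here (16.8 and 14.2). The antigenomic background sets are not among those 20. Against these controls the level is only bounded, and with the mimic KIF14 was higher by at least 6.16-fold. The difference passed the test (n = 2 per group, limma adjusted p = 2.65e-08), and its fitted log2 value of 2.87 is no measured size, since the control level is a bound. KIF14 has a second probe set, brighter in linear mean, which read 112 and 115 against 10.9 and 8.90. Its control arrays are under the same control probe sets, and it was higher by at least 7.38-fold. Both probe sets put the mimic arrays far above the controls.

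KIF20A, which moves the chromosomal passenger complex to the central spindle, read 438 and 471 with the mimic against 99.8 and 93.6 with miR-NC. The rise was 4.70-fold (log2 2.23 ± 0.08, limma adjusted p = 8.58e-09), rank 48. KIF23, the motor of centralspindlin, read 168 and 213 against 75.8 and 72.6, a change of 1.35 ± 0.12 (limma adjusted p = 3.11e-06). KIF23 is the risen division kinesin whose mimic arrays lie furthest apart, yet the lower of them is above both controls. KIF4A, a chromosome-bound motor that also limits the length of the central spindle, read 196 and 210 against 67.2 and 62.4 (1.65 ± 0.09, limma adjusted p = 1.60e-07). Its dimmer probe set, marked as cross-hybridizing, was at 0.26 and did not pass, and the mean of both was at 0.95. KIF20B, another motor of late cytokinesis, read 41.8 and 45.3 against 36.3 and 34.5, a change of 0.30 that missed the threshold (limma adjusted p = 0.0538). So among these motors of the midzone and midbody 4 rose and KIF20B, with the smallest difference, did not pass.

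Motors that shape and align the spindle rose as well. KIF11, which slides antiparallel microtubules apart to separate the poles, read 307 and 337 with the mimic against 152 and 149 with miR-NC. Its change was 1.09 ± 0.08 (limma adjusted p = 8.71e-07). KIF15, which can maintain a bipolar spindle beside KIF11, read 77.7 and 84.2 against 25.3 and 22.7 (1.75 ± 0.12, limma adjusted p = 5.93e-07). The groups lie far apart in both genes, though the only probe set of KIF15 is marked as cross-hybridizing. KIFC1, a motor of the opposite direction that gathers extra centrosomes into poles, read 161 and 178 against 79.9 and 58.3 (1.31 ± 0.14, limma adjusted p = 1.37e-05). The control arrays of KIFC1 spread more than those of KIF11, and the groups still do not overlap.

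At chromosomes and kinetochores, KIF2C, a depolymerase that frees faulty attachments, read 750.5 and 716 with the mimic against 234 and 243 with miR-NC. It rose 3.08-fold (1.62 ± 0.06, limma adjusted p = 1.61e-08), and its other probe set by 1.56. KIF18A, which damps chromosome oscillations at the metaphase plate, read 148 and 154 against 43.1 and 54.8 (1.63 ± 0.12, limma adjusted p = 1.12e-06). Both stand clear of their controls. KIF22, a chromosome arm motor, read 171 and 181 against 88.2 and 93.8 (0.95 ± 0.09, limma adjusted p = 5.55e-06). That call rests on probe sets marked as shared between genes: the other such set rose by 0.70, while the 1 set without the mark was at -0.059 and did not pass (limma adjusted p = 0.805 with cross-hybridizing probe sets left out). KIF18B, which works with KIF2C at the tips of astral microtubules, read 55.2 and 61.0 against 70.0 and 59.6, a change of -0.15 that did not pass (limma adjusted p = 0.292). Its groups overlap, and a second probe set listed for it holds identical values and adds nothing. On the poly(A) scale KIF18B was lower, at -0.49 (limma adjusted p = 0.00513). KIF2B, a depolymerase related to KIF2C, was under the filter at 5.53 and 6.23 against 6.35 and 5.22, a level not above the controls with no target.

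**Figure D2:**
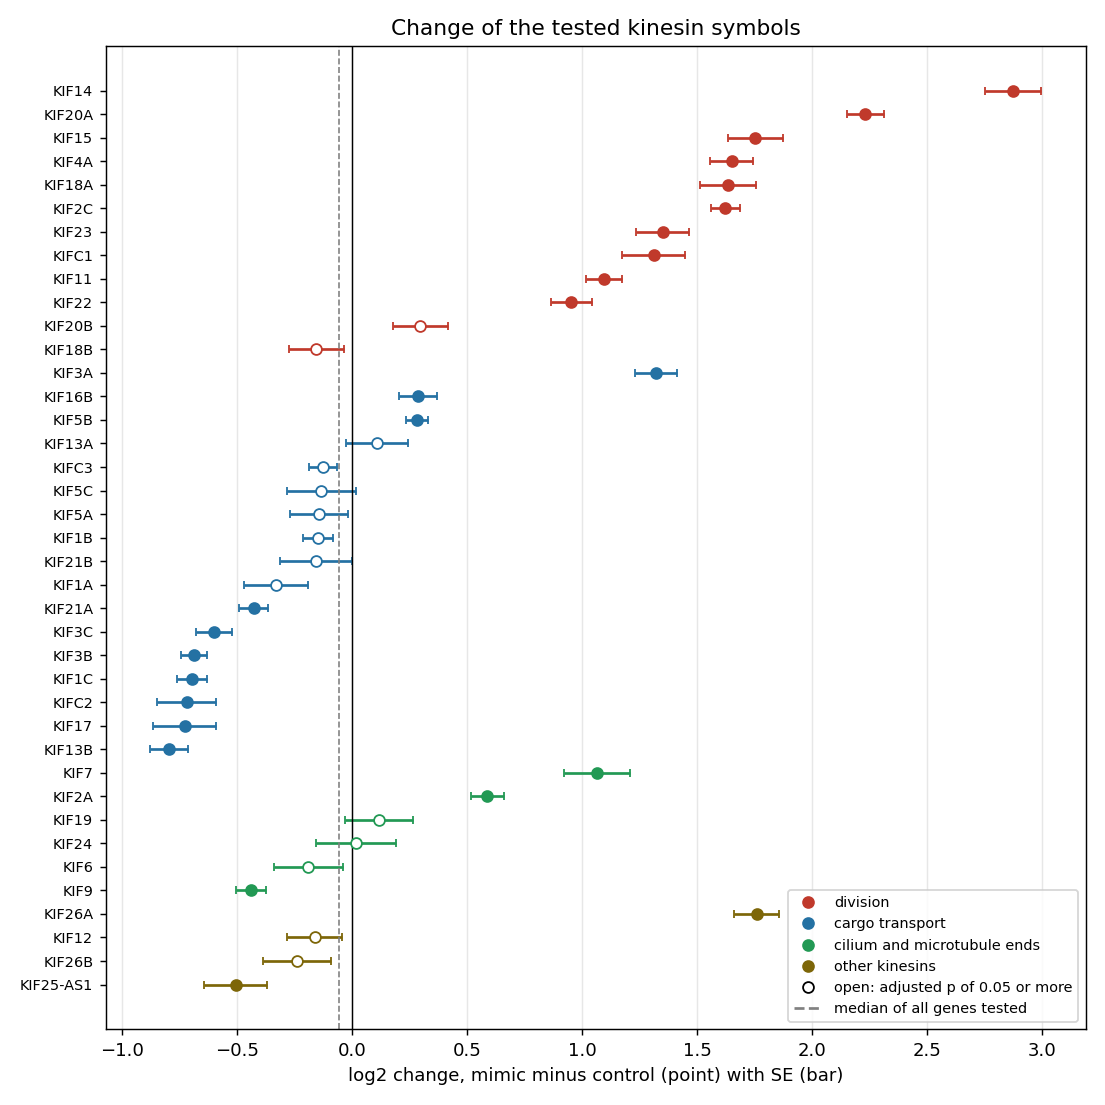
Log2 change of each tested kinesin symbol, mimic minus control (x axis), as a point with its SE as a bar, grouped and coloured by role; filled points passed an adjusted p of 0.05 and the dashed line is the median of all genes, -0.058. Division kinesins (red) run from -0.15 to 2.87, transport kinesins (blue) from -0.80 to 1.32.

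Among 17 transport kinesins, all tested, 3 rose and 7 fell, with a median log2 change of -0.16, beside 28.1% and 26.9% of all genes. For 11 of the 17 both mimic arrays lay under both control arrays, as they did for 42.9% of all genes. With the poly(A) spikes 1 was higher and 13 were lower, where 11.1% of all genes were higher and 55.4% lower, so the size of this group's fall depends on the scale, while the members that fell on the deposited scale fell on both. Without control replicate 2, 10 were lower.

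In the motors of ciliary and vesicle transport that share KIF3A, the shared subunit and its partners went in opposite directions. KIF3A, which pairs with KIF3B or KIF3C and carries cargo towards the ciliary tip, read 252 and 282 with the mimic against 102 and 112 with miR-NC, a rise of 1.32 ± 0.09 (log2, limma adjusted p = 6.48e-07). Its 2 dimmer probe sets rose by 1.29 and 2.36, the second with 3 of 4 arrays above the controls with no target. KIF3B, the usual partner, read 614 and 584 against 978 and 949 (-0.69 ± 0.06, limma adjusted p = 2.39e-06), and both of its other probe sets that were above background on every array fell. KIF3C read 133 and 130 against 197 and 201 (-0.60 ± 0.08, limma adjusted p = 7.96e-05). KIF17, which also enters cilia but pairs with itself, read 24.0 and 20.5 against 38.5 and 35.1 (-0.73 ± 0.14, limma adjusted p = 9.20e-04). The KIF3 adaptor KIFAP3, from the list of adaptors, read 246 and 248 against 338 and 362 (-0.50 ± 0.07, limma adjusted p = 1.22e-04). KIF3A was thus the 1 measured subunit of this motor that rose, and KIF3B, KIF3C and KIFAP3 fell. On the poly(A) scale KIF3A was at 0.98 and KIF3B at -1.025, so the opposite directions held.

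Of the motors for vesicles and membrane cargo, KIF13B, which carries membrane receptors and scaffold proteins, read 121 and 129 with the mimic against 218 and 215 with miR-NC. It fell 1.74-fold (log2 -0.80 ± 0.08, limma adjusted p = 1.10e-05), the lowest change of all kinesins. KIF1C, which carries integrins and secretory vesicles, read 280 and 272 against 439 and 455 (-0.70 ± 0.07, limma adjusted p = 6.48e-06). In both genes the arrays of a group agree closely and the groups are far apart. KIFC2, described mainly in neurons, read 39.5 and 36.2 against 68.9 and 56.4 (-0.72 ± 0.13, limma adjusted p = 6.96e-04). KIF21A, a motor of the cell cortex that restrains microtubule growth, fell by 0.43 ± 0.06 on the log2 scale (limma adjusted p = 1.56e-04), or by 0.23 with its probe sets averaged. The close relatives KIF13A (0.11), KIF1A (-0.33), KIF1B (-0.15) and KIF21B (-0.16) did not pass. For KIF1B, 1 dim probe set of 5 others rose by 0.81, against the direction of the brightest.

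Conventional kinesin changed little. KIF5B, the heavy chain found in most cells, read 1696 and 1764 with the mimic against 1424 and 1421 with miR-NC, a rise of 0.28 ± 0.05 on the log2 scale (limma adjusted p = 4.50e-04). KIF16B, which moves early endosomes, rose by a like amount, 0.29 ± 0.08 (limma adjusted p = 0.0115). Neither rise held on the poly(A) scale, where KIF5B was at -0.057 and KIF16B at -0.052. KIF16B also missed the threshold without mimic replicate 1 (0.24) and without mimic replicate 2 (0.33), and when its probe sets were averaged (0.15). The neuronal heavy chains KIF5A (-0.14) and KIF5C (-0.13) and the minus-end motor KIFC3 (-0.13) did not pass. KIF5C was dim, at 17.7 to 21.7, near the controls with no target. Tested by probe set, another KIF5C set rose by 0.42 (limma adjusted p = 0.0298), against the direction of the brightest. Another KIF5A set was at -0.40 (limma adjusted p = 0.0396). Both sets were above those controls on 2 of 4 arrays.

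Of the kinesins of cilia and of microtubule ends, 2 of 6 tested genes were higher and 1 lower, beside 28.1% and 26.9% of all genes. KIF7, which acts at the ciliary tip in Hedgehog signalling, read 87.7 and 73.5 with the mimic against 43.7 and 33.7 with miR-NC (1.07 ± 0.14, limma adjusted p = 9.39e-05). KIF2A, a depolymerase of spindle poles and axons, read 262 and 259 against 175 and 171 (0.59 ± 0.07, limma adjusted p = 5.07e-05), and on the poly(A) scale it was at 0.25 and missed the threshold. Both sets of KIF2A values are tight, and 1 other probe set above background rose too. KIF9, of motile cilia, read 265 and 262 against 362 and 352 (-0.44 ± 0.07, limma adjusted p = 2.19e-04). KIF19 (0.12), KIF24 (0.017) and KIF6 (-0.19) did not pass, and KIF6 was not above the controls with no target on any array. KIF27 was under the filter, between 10.8 and 11.3.

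KIF26A, an atypical kinesin without motor activity that is known for restraining growth factor signalling in enteric neurons, rose about as much as the division kinesins. It read 176 and 166 with the mimic against 48.1 and 53.1 with miR-NC, 3.38-fold higher (log2 1.76 ± 0.10, limma adjusted p = 1.63e-07), rank 137. Its relative KIF26B was at -0.24 and did not pass (limma adjusted p = 0.199). KIF26A has 1 probe set, so its change has no second reading. KIF12 (-0.16) did not pass, and KIF25 was under the filter, at 10.6 and 10.2 with the mimic. The antisense RNA KIF25-AS1 fell by 0.51 ± 0.14 on the log2 scale (limma adjusted p = 0.00938). That call was lost on leaving out mimic replicate 1 (-0.55), and likewise mimic replicate 2 (-0.46) and control replicate 1 (-0.36). It was also lost when the probe sets of a gene were averaged (-0.29). Which strand its probes read was not checked here, so signal of KIF25 and of its antisense RNA may mix.

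Other probe sets of a gene give a partly separate reading of the same RNA. The 42 symbols have 105 probe sets, and 28 symbols have several. Of the 25 called kinesins, 12 had at least 1 other probe set above the controls with no target on all arrays, 17 in all. Of these 17, 12 passed in the direction of the brightest and none in the opposite one, while 51.4% of all probe sets tested passed in either direction. That share is not limited to further probe sets of called genes, and a matched share was not computed. The 5 that did not pass belong to KIF4A, KIF22, KIF5B, KIF16B and KIF21A.

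**Figure D3:**
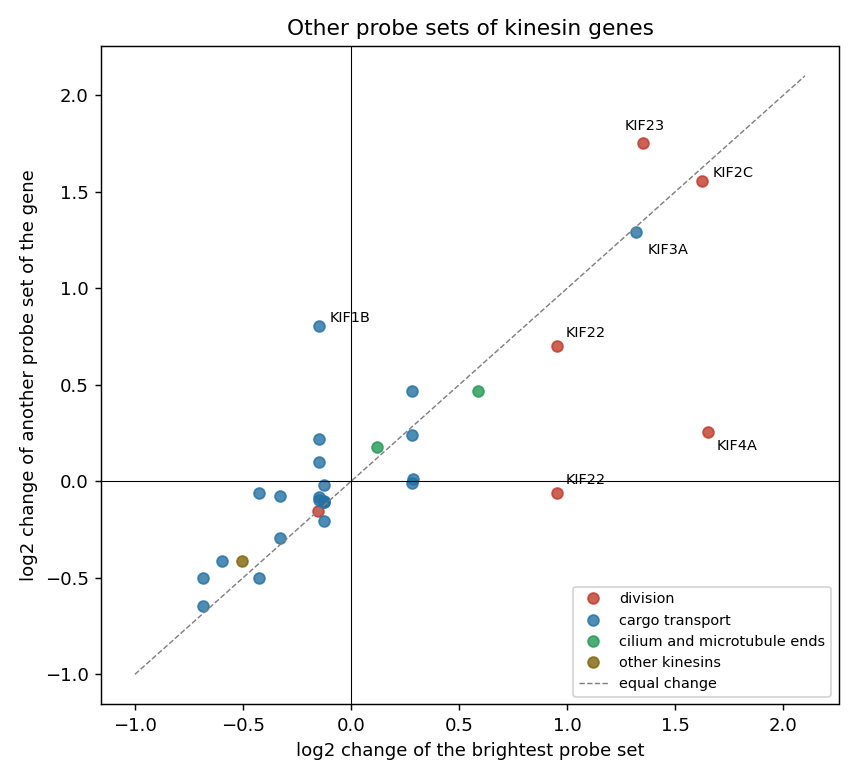
Log2 change of each further probe set of a kinesin symbol (y axis) against that of the brightest (x axis), for probe sets above the controls with no human target on all 4 arrays; colours give the role and the dashed line equal change. KIF2C, KIF3A and KIF23 lie near or above the line, while 1 probe set of KIF4A (0.26) and 1 of KIF22 (-0.059) lie far below it.

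Genes that work with kinesins were counted in lists of their own. Of 19 spindle partners 17 rose and 1 fell, beside 28.1% and 26.9% of all genes, with a median log2 change of 1.35. The counts on the poly(A) scale were also 17 and 1, beside 11.1% and 55.4% of all genes. The hyaluronan receptor HMMR, which helps assemble spindle poles, rose by 2.44 ± 0.06, the kinetochore protein CENPF by 2.37 ± 0.09 and the spindle pole protein ASPM by 2.31 ± 0.11. The midzone bundler PRC1, to which KIF4A and KIF14 bind, rose by 1.95 ± 0.06, and RACGAP1, the partner of KIF23, by 1.36 ± 0.09. The member that fell was NUMA1, a pole-focusing protein, at -0.59 ± 0.07, and INCENP, at 0.010, did not pass.

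Of 14 light chains and cargo adaptors 5 were higher and 4 lower, near the shares of all genes (28.1% and 26.9%). MAPK8IP2, a scaffold that links kinesin to stress kinases, led at 0.93 ± 0.10, and the light chains KLC3 and KLC2 were at 0.57 ± 0.08 and -0.44 ± 0.08. With the poly(A) spikes 1 was higher and 9 were lower, where 11.1% of all genes were higher and 55.4% lower. Averaging a gene's probe sets on the deposited scale gave 7 lower. Of 23 genes of dynein and dynactin, the motor of the opposite direction, 10 rose and 6 fell, beside the same 28.1% and 26.9% of all genes. With the poly(A) spikes the counts were 3 and 11, beside 11.1% and 55.4% of all genes. The largest rises there were of DYNC2H1 (1.54 ± 0.11) and DYNC2LI1 (1.27 ± 0.08), subunits of the dynein that returns cargo from the ciliary tip.

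The counts that follow stand beside 28.1% of all genes higher and 26.9% lower on the deposited scale. On the poly(A) scale these shares were 11.1% and 55.4%. In intraflagellar transport, the cargo trains that KIF3 motors and this dynein pull, 11 of 19 genes rose and 1 fell, with a median of 0.27. IFT74 rose most, by 1.38 ± 0.11, followed by IFT52 and TRAF3IP1 at 0.66 each. With the poly(A) spikes 3 were higher and 4 lower, and 7 were higher without mimic replicate 1 and 6 without mimic replicate 2. Of 10 tubulin genes 8 rose and none fell, led by TUBB3 (0.86 ± 0.07). On the poly(A) scale 3 were higher and 1 lower, and without cross-hybridizing probe sets 4 could be tested, 1 being higher and 1 lower. Of 15 other microtubule binding proteins 7 rose and 4 fell, with MAP1B at 1.47 ± 0.17, the tubulin-sequestering protein STMN1 at 1.08 ± 0.06 and MAP4 at -0.69 ± 0.07. With the poly(A) spikes 4 were higher and 7 lower. The spindle partners were the companion list whose counts were alike on both scales.

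**Figure D4:**
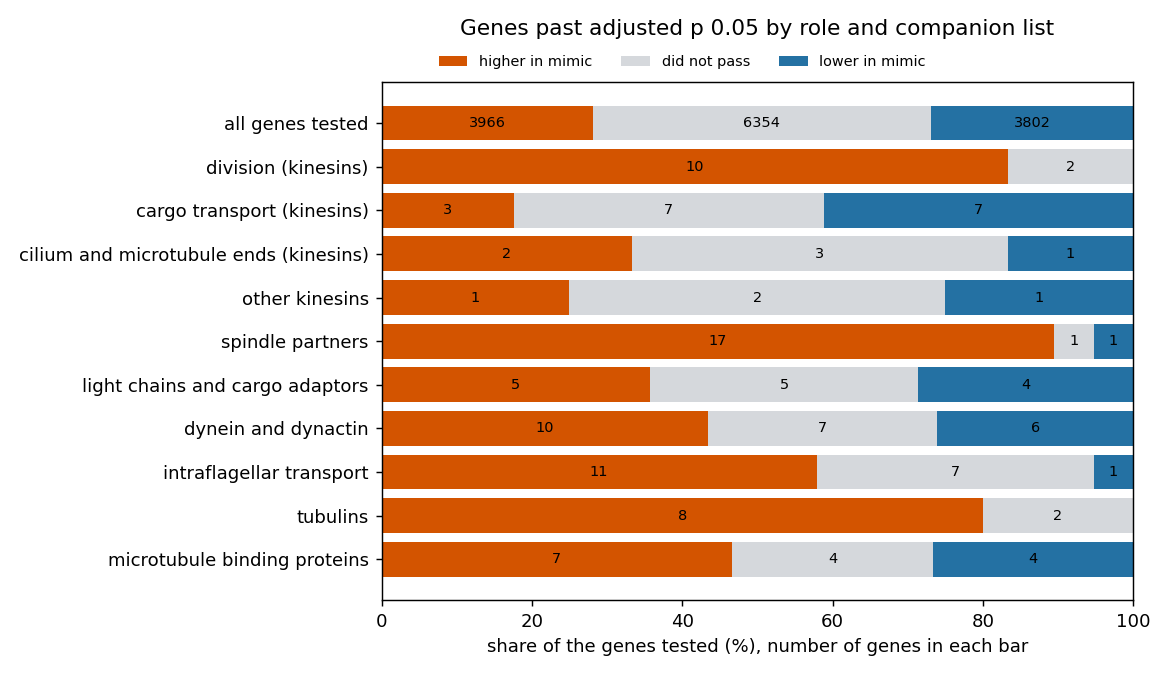
Share of tested genes (x axis, percent) that were higher, did not pass or were lower in the mimic group, for all genes, the kinesins by role and the companion lists; numbers in the bars count genes. Division kinesins (10 of 12) and spindle partners (17 of 19) are mostly higher, beside 3966 of 14122 genes in all.

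RefSeq promoters of 300 bases, from 250 before the start, were held for 34 of the 42 symbols. The CHR letters were in 8 of the 10 risen division kinesins (80.0%), the CCAAT box in 8 and both in 7. Of 6 kinesins that rose outside this role, 1 (KIF5B) held both. Of the 7 fallen kinesins with a promoter entry none held the CHR letters and 2 held the CCAAT box. Over all 27305 genes with an entry, 19.5% held the CHR letters, 39.7% the CCAAT box and 7.85% both. For the 11402 tested genes with an entry these shares were 15.9%, 42.1% and 6.61%. Among the 547 genes of the array with an entry that rose at least 2-fold, the shares were 23.4%, 47.0% and 11.2%. Counting 1 promoter entry per gene, the CHR matches of the risen division kinesins began between 55 bases before and 4 bases after the start. The match 4 bases after it is that of KIFC1, counted from the start of its promoter entry. In the 9 division kinesins with both, KIF18B and KIF20B included, the CCAAT box lay upstream of the CHR, by 9 to 122 bases. KIF18B and KIF20B hold both and did not pass, and KIF2C and KIF20A rose with no CHR letters in the window. A match is a description of letters, and binding was not measured.

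**Figure D5:**
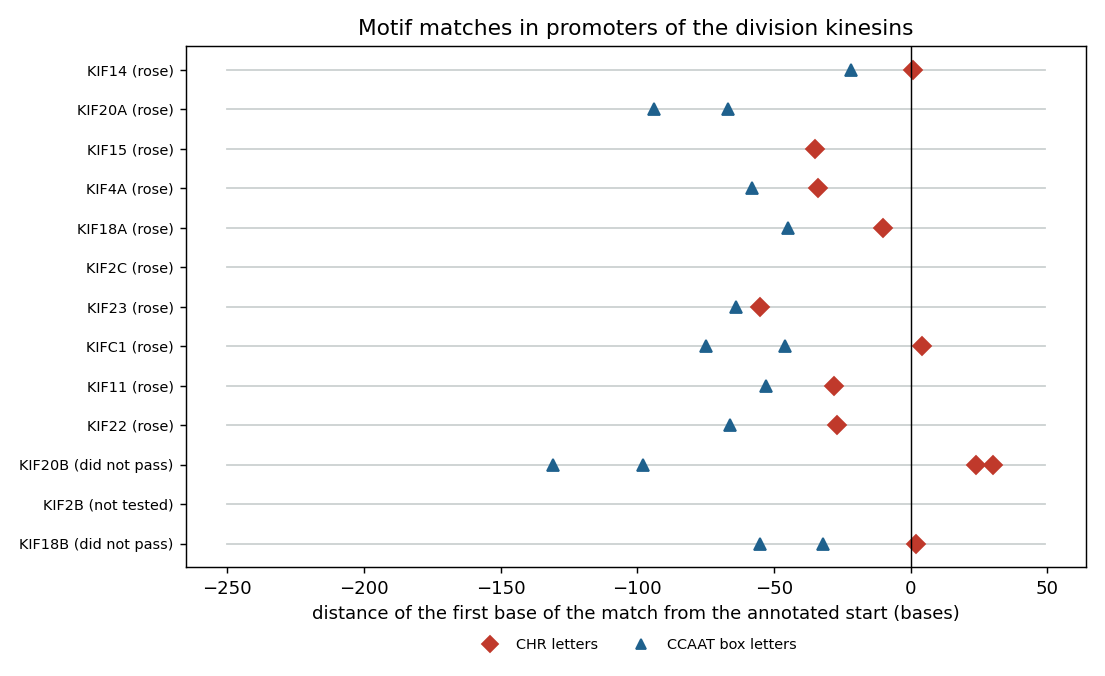
Distance in bases from the annotated start (x axis, 0) to the first base of each match of the CHR letters (red diamonds) and the CCAAT box (blue triangles) in 300-base promoters of the 13 division kinesins, on either strand; where a gene has several entries the one with the lowest coordinate is drawn. In 9 rows a triangle lies to the left of the diamond, and KIF2C and KIF2B have no match.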

How the data were processed

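SCC-9 RNA was hybridized to 4 PrimeView arrays, from 2 ug of total RNA per the labels' protocols. Analysis started from each probe set's deposited intensity. The submitters' processing notes name RMA, which corrects background and normalizes between arrays. The values run from 2.09 to 17329, which is a linear scale, and log2 was taken. Antigenomic background probe sets ran from 2.49 to 1447, so dim values can be background. Of 49395 probe sets 44988 had 1 symbol. Each gene took the probe set with the highest mean log2 value, and the 14122 genes above the 30th percentile (intensity 12.0) were tested with limma 3.58.1 in R 4.3.3 (lmFit, eBayes with a mean-variance trend, two-sided, Benjamini-Hochberg over all of them, threshold 0.05). The fit had 2 residual degrees of freedom beside 8.35 prior ones. The background was taken from 20 control probe sets with no human target, the Tag and TrpnX sets. The antigenomic sets, some of them much brighter, were not used for it. The KIF14 bound divides the mimic mean by a mean over the control group. That mean takes, per array, whichever is greater of KIF14 and the brightest of the 20 controls. All kinesins are accounted for, and those changed at least 1.5-fold have each array's value. Companion lists name up to 3 members of largest change; further members named were chosen after their values were seen. Members, roles and lists were chosen with earlier results of these data known. Probe sets ending in _x_at or _s_at count as cross-hybridizing. The number of arrays limits the precision. Alternatives tried are given in the closing section.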

Additional observations from a re-analysis of the deposited data

How the results depend on the processing

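The count of higher kinesins (16) lay between 13 and 17 over all alternatives and that of division kinesins (10) between 8 and 11. Scaled to the poly(A) spikes, lower kinesins numbered 19 instead of 9, lower transport kinesins 13 instead of 7, higher transport kinesins 1 instead of 3, and the median kinesin was at -0.32 instead of 0.017. The median was 0.28 with a filter at the 50th percentile, which leaves 32 kinesins. KIF5B (-0.057) and KIF16B (-0.052) changed sign with the poly(A) spikes, and KIF22 (-0.059) without cross-hybridizing probe sets, which also leaves KIF15 untested. Leaving out each array gave 15 to 16 higher and 8 to 12 lower kinesins, and 83 to 107 called genes over kinesins and companion lists, against 99. The replicate numbers of the titles were not taken as pairs: deviations of same-numbered arrays correlated at 0.084 across genes. With the replicate number as a block 17 kinesins were higher and 10 lower, KIF20B and KIF1A being added. Taking the brightest probe set by linear mean, chosen after seeing the data, left both counts at 16 and 9. KIF20B passed under 6 alternatives, with changes from 0.21 to 0.35. Under the other alternatives it did not pass, and with the poly(A) spikes it was at -0.042. Why these values moved was not tested. With 2 arrays per group, dim members such as KIF6 and KIF27 were above the controls with no human target on no array.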

Other observations

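Some kinesins carry no KIF symbol and stand outside the rule. CENPE, the kinetochore motor that brings chromosomes to the metaphase plate, read 139 and 134 with the mimic against 57.0 and 50.6 with miR-NC. It is also counted among the spindle partners, and its log2 rise was 1.35 ± 0.10 (limma adjusted p = 1.24e-06), within the range of the division kinesins. STARD9, a centrosomal kinesin, read 15.3 and 19.8 against 16.9 and 18.4 and did not pass (-0.020, limma adjusted p = 0.925). A probe set shared by KIF4A and its intronless relative KIF4B, which names no single gene, read 294 and 306 with the mimic against 92.4 and 80.3 with miR-NC, a difference of 1.80 on the log2 scale beside 1.65 for KIF4A alone.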
